A study of Mus musculus with 8 samples.

Results

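Epidermis makes and modifies steroids locally, and 8 genes of that pathway were followed through the RNA sequencing of mouse back-skin epidermis. They were taken from 21690 genes in the expression table: Cyp11a1, Hsd3b6, Hsd3b1, Star, Fdx1, Fdxr, Hsd11b1 and Srd5a1. The experimental pups carried the K5rTA and tetOCre transgenes with Esrp1 flox/flox and Esrp2-/- alleles. The control pups carried the same Esrp1 flox/flox and Esrp2-/- alleles without the transgenes. The dams of both groups were fed doxycycline chow from embryonic day 17, and epidermis was taken at postnatal day 5. Each group held 4 libraries. Esrp2 is null by genotype in both groups, so the comparison is of the deletion in Esrp1 driven by the keratin 5 transactivator, together with any effect of the transgenes or of Cre itself. The deletion is thus limited to cells in which that promoter is or was active. Whether the libraries come from separate animals is not stated beyond the label of biological replicate, so the spread described is that between these libraries. Esrp1 itself read 49.8 to 75.6 TPM in experimental and 131 to 162 TPM in control libraries, counted over the whole gene.

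Steroid hormones are made from cholesterol. The protein STAR carries cholesterol to the inner mitochondrial membrane, where CYP11A1 cuts its side chain to give pregnenolone. Electrons for that reaction pass from NADPH through ferredoxin reductase (Fdxr) and ferredoxin (Fdx1). Enzymes of the HSD3B family turn pregnenolone into progesterone, HSD11B1 regenerates active glucocorticoid from its inert keto form, and SRD5A1 reduces testosterone to dihydrotestosterone. Adrenal gland and gonads make most circulating steroid, and skin and its sebaceous glands hold parts of the same pathway.

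The members had been proposed with the contrast between experimental and control epidermis already known, in which Cyp11a1 and Hsd3b6 stood among the largest changes. Their values in that contrast are therefore a description, and how many of them pass a threshold supports nothing. Levels are in TPM, a share of transcripts per gene length that holds no sequencing depth, so the counting error of each library is not given. The authors' table lists any level of 1 TPM or less at 0. That floor held Hsd3b1 in 8 of 8 libraries, Hsd11b1 in 6, Star in 4 and Hsd3b6 in 1. Cyp11a1, Fdx1, Fdxr and Srd5a1 lay above it in every library.

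The Hsd3b genes are close copies in a cluster on chromosome 3, so their starts are shown first, because reads from such copies can be assigned to the wrong one. The first 120 coding bases from GENCODE M21 (GRCm38, all on the minus strand) follow, 5′ to 3′, from Hsd3b6 at chr3:98805504-98814443, Hsd3b2 at chr3:98709255-98724543, Hsd3b3 at chr3:98741523-98763127 and Hsd3b1 at chr3:98852194-98859794, with capitals at the 25 positions where the 4 genes are not all alike.
Hsd3b6: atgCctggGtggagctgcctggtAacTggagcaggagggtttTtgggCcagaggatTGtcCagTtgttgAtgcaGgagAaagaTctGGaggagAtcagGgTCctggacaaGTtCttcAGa
Hsd3b2: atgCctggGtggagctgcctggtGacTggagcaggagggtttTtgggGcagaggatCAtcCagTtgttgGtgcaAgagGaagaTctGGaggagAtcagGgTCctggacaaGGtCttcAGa
Hsd3b3: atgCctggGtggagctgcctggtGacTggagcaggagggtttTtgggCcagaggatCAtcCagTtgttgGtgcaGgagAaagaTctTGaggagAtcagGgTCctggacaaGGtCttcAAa
Hsd3b1: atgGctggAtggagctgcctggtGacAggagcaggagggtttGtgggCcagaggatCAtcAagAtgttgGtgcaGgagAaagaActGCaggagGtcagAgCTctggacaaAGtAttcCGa
Within this stretch Hsd3b6 differed from Hsd3b2 at 8 bases, from Hsd3b3 at 7 and from Hsd3b1 at 20. Over the whole coding length of 1122 bases, Hsd3b6 was 94.5% identical to Hsd3b3, 94.4% to Hsd3b2 and 90% to Hsd3b1. Of the distinct 31-base words in Hsd3b6 coding transcripts, UTRs included, 29.5% also occurred in another gene, and 23.7% occurred in Hsd3b2. For Cyp11a1 the share found in another gene was 4.87%, for Srd5a1 17.1% and for Fdx1 0.228%. A count of words does not say how the authors' software divided the reads.

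Cyp11a1, the side-chain cleavage enzyme, was higher in all 4 experimental libraries than in the 4 controls. In bulk tissue, fewer cells of a type and less RNA per cell cannot be told apart, and this holds for each level given here. The gene (ENSMUSG00000032323.13) lies on chromosome 9, 58006411 to 58027023, plus strand. It stood at 16.1, 17.7, 22.9 and 50.5 TPM in experimental libraries 1 to 4, against 1.92, 1.94, 1.83 and 3.03 TPM in control libraries 1 to 4. The groups did not overlap, and the highest level within each group was that of library 4, although numbers do not pair the libraries. The means were 26.8 ± 16.1 TPM in experimental and 2.18 ± 0.572 TPM in control libraries (SD, n = 4 each), a 12.3-fold higher level. The log2 change was 2.99 (SE 0.32) on the log2(TPM + 1) scale, which understates the change of a gene this low in controls. Without experimental library 4 it was 2.65, and without experimental libraries 2 and 4 it was 2.68. Experimental libraries 2 and 4 held 18.2% and 17.5% mitochondrially encoded transcripts, against 10.6% to 12.6% in the other 6 libraries. One non-coding gene, Gm17322, overlaps Cyp11a1 on the same strand and shares the 4.87% of words given above.

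**Figure D1:**
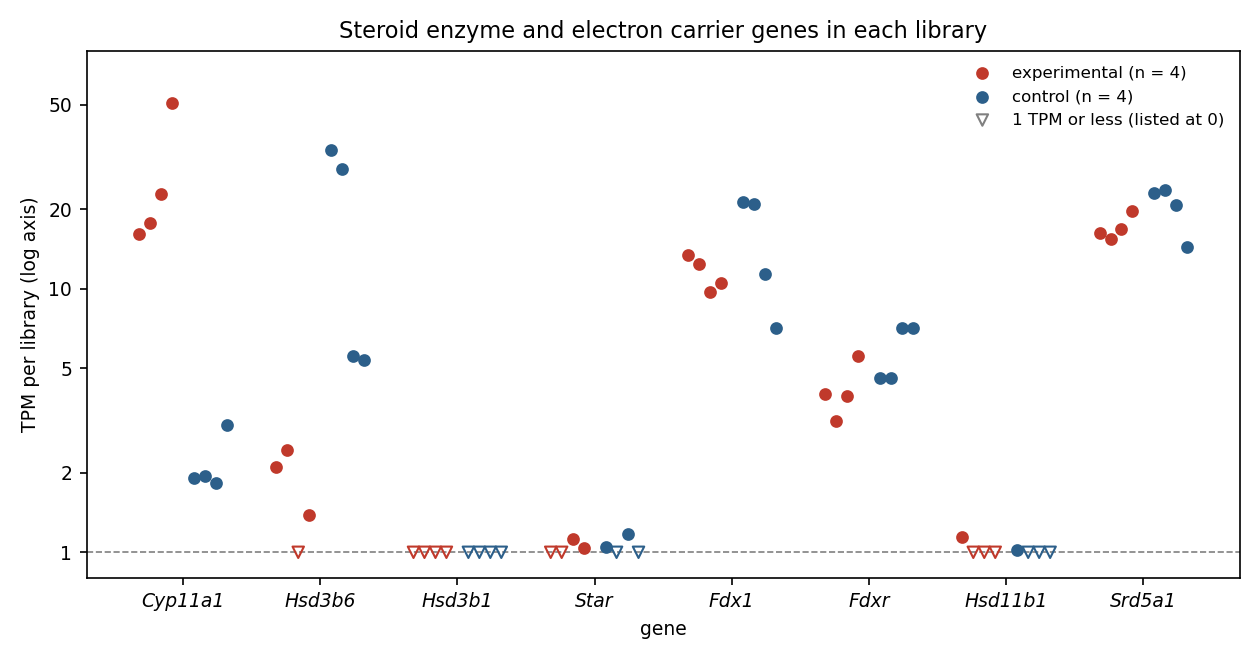
Level of each of the 8 genes in TPM on a log axis, one point per library, experimental libraries in red on the left of each gene and control libraries in blue on the right. Open triangles on the dashed line at 1 TPM are libraries listed at 0. Cyp11a1 lies at 16.1 to 50.5 TPM in experimental libraries, above all controls, and Hsd3b6 lies at 2.44 TPM or less in experimental libraries, below all controls.

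The electron carriers of the side-chain cleavage reaction did not separate the groups as the enzyme did. Fdx1 (chromosome 9, 51943306 to 51963556, minus strand) stood at 13.4, 12.4, 9.73 and 10.5 TPM in experimental libraries, against 21.3, 21.0, 11.4 and 7.08 TPM in control libraries. The experimental libraries lay inside the range of the controls, which spanned 3.0-fold among themselves. The means were 11.5 ± 1.71 and 15.2 ± 7.07 TPM in experimental and control libraries (SD, n = 4 each), with a log2 change of -0.26 (SE 0.31). The sign of that change turned with the controls used: it was 0.31 once control libraries 1 and 2 were left out, and -0.83 once control libraries 3 and 4 were.

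Fdxr, the reductase that feeds Fdx1 (chromosome 11, 115268024 to 115277050, minus strand), stood at 4.0, 3.14, 3.93 and 5.55 TPM in experimental libraries, against 4.6, 4.6, 7.08 and 7.1 TPM in control libraries. Of the experimental libraries 3 lay below every control, and experimental library 4 lay within their range. The log2 change was -0.41 (SE 0.21). Set against Cyp11a1 in the same library, Fdx1 transcripts were 0.207 to 0.835 times as abundant in experimental libraries and 2.33 to 11.1 times in control libraries. Fdxr transcripts were 0.11 to 0.249 times as abundant as Cyp11a1 in experimental and 2.34 to 3.88 times in control libraries. The P450 was thus the scarcest of the 3 transcripts in each control library and the most abundant in each experimental library. Fdx1 and Fdxr also serve reactions outside steroid synthesis.

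Star, the cholesterol carrier (chromosome 8, 25806555 to 25815982, plus strand), was at the edge of the floor in both groups. It read 1.12 and 1.04 TPM in experimental libraries 3 and 4 and was listed at 0 in experimental libraries 1 and 2, against 1.05 and 1.17 TPM in control libraries 1 and 3 and 0 in control libraries 2 and 4. No difference could be read at this level.

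Hsd3b6, a dehydrogenase that acts on pregnenolone, was lower in all 4 experimental libraries than in the 4 controls. The gene (ENSMUSG00000027869.14) lies on chromosome 3, 98805504 to 98814443, minus strand. It stood at 2.1, 2.44, 0 and 1.38 TPM in experimental libraries, against 33.6, 28.4, 5.57 and 5.38 TPM in control libraries. The groups did not overlap, but the controls themselves differed 6.25-fold, with libraries 1 and 2 high and libraries 3 and 4 low. The log2 change was -2.43 (SE 0.55), with the entry at the floor set to 1 TPM. Its size depended on the controls: -1.28 with control libraries 1 and 2 left out, and -3.58 with control libraries 3 and 4 left out. In the authors' deposited table its log2 fold change was -3.08 (SE 0.62), and Hsd3b6 was the only one of the 8 genes in it; its direction is read from Esrp1, which is negative there. That table holds 748 genes, each with a negative change, so a gene higher in experimental epidermis could not appear there.

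Hsd3b1, the other Hsd3b gene among the members (chromosome 3, 98852194 to 98859794, minus strand), was listed at 0 in all 8 libraries, which means 1 TPM or less and not absence. Hsd3b3, Hsd3b4 and Hsd3b5 were listed at 0 in all 8 libraries as well. The family's other signal came from Hsd3b2, named here after its values were seen. It stood at 2.88, 3.7, 3.61 and 9.44 TPM in experimental libraries, against 3.01, 3.08, 3.65 and 4.03 TPM in control libraries. Experimental library 4 was thus high for Hsd3b2, and the other experimental libraries lay within 2.88 to 3.7 TPM.

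Because Hsd3b6 and Hsd3b2 share sequence, their levels were also added, which depends less on how reads were divided between the 2. The sum was 4.97, 6.14, 3.61 and 10.8 TPM in experimental libraries, against 36.6, 31.5, 9.22 and 9.41 TPM in control libraries. By this sum experimental library 4 lay above control libraries 3 and 4, so the groups overlapped. Of the TPM listed for the Hsd3b genes, Hsd3b7 included, Hsd3b6 took 0% to 39.8% in experimental libraries and 49.5% to 87.5% in control libraries.

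**Figure D2:**
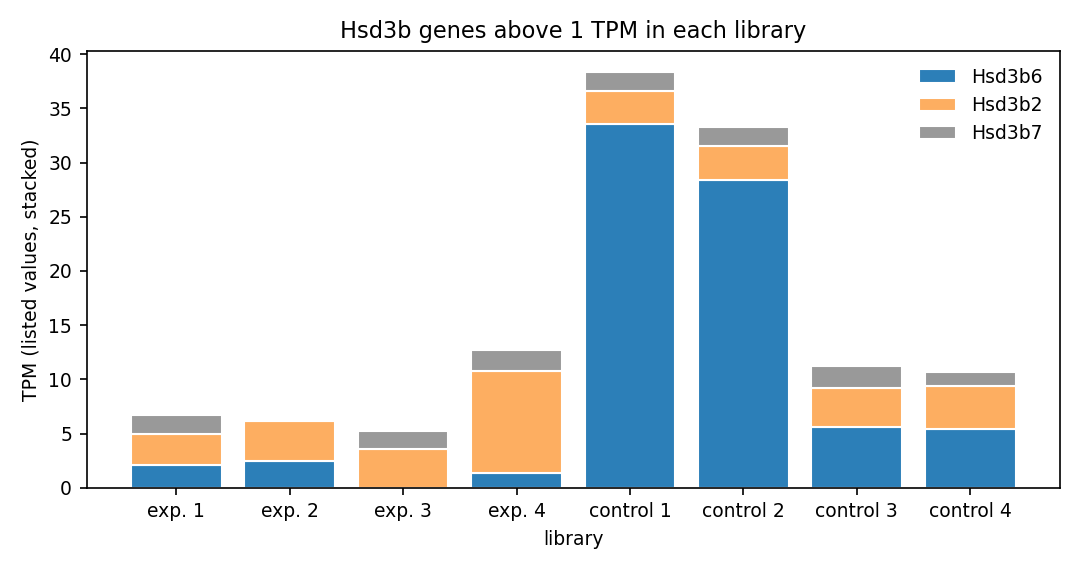
TPM of Hsd3b6, Hsd3b2 and Hsd3b7 stacked for each library, the 4 experimental libraries on the left and the 4 control libraries on the right; the other Hsd3b genes were at 1 TPM or less throughout. Hsd3b6 makes up most of the bar in control libraries 1 and 2, whereas Hsd3b2 makes up most of it in experimental library 4.

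The 2 members that act on finished hormones overlapped between the groups. Srd5a1, the steroid reductase (chromosome 13, 69573449 to 69611442, minus strand), stood at 16.3, 15.5, 16.9 and 19.7 TPM in experimental libraries, against 23.1, 23.6, 20.7 and 14.4 TPM in control libraries. The groups overlapped through control library 4, and the means were 17.1 ± 1.8 and 20.4 ± 4.25 TPM in experimental and control libraries (SD, n = 4 each). The log2 change was -0.22 (SE 0.19). Hsd11b1, which regenerates active glucocorticoid (chromosome 1, 193221634 to 193264075, minus strand), was above the floor in 1 library of each group. It read 1.14 TPM in experimental library 1, against 1.02 TPM in control library 1. Hsd11b1 overlaps Lamb3 and Srd5a1 overlaps Nsun2 on the opposite strand, and whether quantification used strand is not given.

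In order of median level, the members in experimental epidermis ran from Cyp11a1 through Srd5a1, Fdx1 and Fdxr to Hsd3b6, with Star, Hsd11b1 and Hsd3b1 at or near the floor. In control epidermis the order was Srd5a1, Hsd3b6, Fdx1, Fdxr and Cyp11a1, followed by the same 3 genes. The ranges of Cyp11a1 and Srd5a1 overlapped in experimental libraries, and those of Srd5a1, Hsd3b6 and Fdx1 overlapped in control libraries, as did those of Fdx1 and Fdxr. The order of those neighbours lay within their spread.

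Of the 8 members, 5 had a mean of at least 1 TPM and entered the fit across 10682 genes. Cyp11a1 was past the threshold of limma adjusted p under 0.05 upward and Hsd3b6 downward, where 2.46% of all tested genes passed in either direction, 0.917% upward and 1.54% downward. Groups did not overlap for the same 2 members and for 12.6% of all tested genes. These counts follow from how the members were chosen. The number of members past the threshold was 1 in 6 of the 8 fits that left out 1 library, and 2 without control library 3 or control library 4. Hsd3b6 was the member that dropped out. It also did not pass after median centring, after quantile normalization, without the filter on low values or with that filter at 5 TPM. Nor did Hsd3b6 pass with entries at 0 left at 0 or without experimental libraries 2 and 4. Cyp11a1 passed in every alternative. The median tested gene changed by -0.18 on the log2 scale, and relative to it Cyp11a1 changed by 3.17, Hsd3b6 by -2.25, Fdxr by -0.23, Fdx1 by -0.08 and Srd5a1 by -0.04. Among all tested genes 37.3% of those past the threshold were higher in experimental epidermis, and 73.5% were after each library was centred on its median. No member had an entry among the 236 genes of the deposited splicing table.

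Around the members, a wider list of 98 names of steroid genes was laid out by role, chosen for function and with earlier results of these data known. The table held 95 of them (Fdx2 is there under its older symbol Fdx1l), and 42 of these were listed at 0 in all 8 libraries. Apart from the 8 members, 42 genes of the list were tested: 2 rose and 1 fell, which is 7.14% against 2.46% of all genes. Their median log2 change was -0.23, beside -0.18 over all genes. Groups did not overlap for 4 of the 42 (Stard4, Hsd17b2, Hsd17b14 and Por), and for 12.6% of all tested genes. The authors' deposited table also holds Hsd17b14, Soat1 and H6pd from the list.

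Both calls among enzymes that act at the steroid's carbon 17 concerned dehydrogenases of the HSD17B family, and they went in opposite directions. Hsd17b2, which inactivates estradiol and testosterone, stood at 79.3, 62.6, 68.5 and 87.0 TPM in experimental libraries, against 45.9, 46.5, 40.0 and 38.9 TPM in control libraries. It rose 1.74-fold (log2 change 0.78 with SE 0.16, and limma adjusted p = 0.0368), and every experimental library lay above every control. Hsd17b14, which can oxidize estradiol in vitro, stood at 14.0, 10.8, 15.9 and 6.91 TPM in experimental libraries, against 28.8, 27.5, 26.5 and 32.3 TPM in control libraries. It fell (log2 change -1.26 with SE 0.24, and limma adjusted p = 0.0229), and the groups did not overlap. The log2 fold change of Hsd17b14 in the authors' deposited table was -1.09 (SE 0.33). The other 5 tested members of the family did not pass. After median centring or quantile normalization Hsd17b14 did not pass (limma adjusted p = 0.072 and 0.0574). Without experimental libraries 2 and 4 neither Hsd17b14 nor Hsd17b2 passed (limma adjusted p = 0.159 and 0.218). Leaving out 1 library, the Hsd17b14 call was lost without experimental library 2, control library 2 or control library 3 (limma adjusted p = 0.0732, 0.0624 and 0.0666). The Hsd17b2 call was kept only without experimental library 2 or control library 4, and its limma adjusted p ranged from 0.0376 to 0.12 over the 8 fits.

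Among 12 tested genes of cholesterol delivery, Stard4 alone passed in limma. An unadjusted p under 0.05 in limma was reached by 4 of them, and by 1810 of all 10682 tested genes. The log2 change was below 0 for 10 of the 12, as for 7888 of all tested genes. The median of the 12 was -0.31, beside -0.18 over all genes. Stard4, which encodes a soluble sterol carrier of the STAR family, stood at 41.1, 42.2, 53.8 and 52.4 TPM in experimental libraries, against 34.0, 25.7, 21.4 and 23.1 TPM in control libraries. It rose 1.82-fold, without overlap of the groups (log2 change 0.85 with SE 0.19, and limma adjusted p = 0.0453). The call held only when the library left out was control library 1 or 4, with limma adjusted p from 0.0279 to 0.148 over the 8 fits. Soat1, which esterifies cholesterol for storage, read 2.43, 3.44, 1.1 and 3.22 TPM in experimental libraries, against 18.1, 14.6, 8.09 and 2.08 TPM in control libraries. It did not pass (limma adjusted p = 0.166) but is in the authors' deposited table with a log2 fold change of -1.73 (SE 0.54).

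The P450 enzymes that follow in adrenal and gonad were mostly at the floor. Cyp21a1, Cyp11b1, Cyp11b2 and Cyp19a1, which complete cortical steroids or make estrogen, were listed at 0 in all 8 libraries. Cyp17a1, the enzyme at the branch toward androgens and named here after its values were seen, was detected in every library at 12.8 ± 2.36 TPM in experimental and 13.2 ± 3.99 TPM in control libraries (SD, n = 4 each; limma adjusted p = 0.996). Por, which passes electrons to microsomal P450s, read 35.0 ± 6.0 TPM in experimental and 43.1 ± 1.28 TPM in control libraries (SD, n = 4 each; limma adjusted p = 0.378). All 4 experimental libraries, at 26.9 to 41.0 TPM, lay below every control, at 41.6 to 44.6 TPM. Such a lack of overlap, in one direction or the other, was found for 12.6% of all tested genes. Cyb5a, a partner of CYP17A1, read 123 ± 10.1 and 158 ± 64.8 TPM in experimental and control libraries (SD, n = 4 each; limma adjusted p = 0.676). H6pd, which supplies NADPH to HSD11B1, was above the floor in 1 experimental library at 1.49 TPM and in all 4 control libraries at 2.1 ± 0.726 TPM (SD, n = 4). It did not pass in limma (adjusted p = 0.201), although the authors' deposited table lists it with a log2 fold change of -0.84 (SE 0.29).

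Among the reductases Akr1d1, which reduces the steroid A ring, read 6.79 ± 1.51 TPM in experimental and 4.18 ± 1.72 TPM in control libraries (SD, n = 4 each; limma adjusted p = 0.25). Srd5a3 read 10.9 ± 1.08 and 11.9 ± 3.01 TPM in experimental and control libraries (limma adjusted p = 0.842). Sult2b1, which makes cholesterol sulfate in epidermis, was the most abundant enzyme of steroid sulfation at 277 ± 26.7 and 236 ± 34.3 TPM (limma adjusted p = 0.5), and Papss1, which makes the sulfate donor, read 37.7 ± 7.82 and 39.0 ± 10.5 TPM (limma adjusted p = 0.951), in experimental and control libraries (SD, n = 4 each).

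Of 7 steroid receptors, Nr3c1, the glucocorticoid receptor, was the one above the floor, at 8.75 ± 1.39 TPM in experimental and 8.95 ± 3.13 TPM in control libraries (SD, n = 4 each; limma adjusted p = 0.975). The androgen, estrogen, progesterone and mineralocorticoid receptor genes were listed at 0 in all 8 libraries. Of 10 genes that glucocorticoid receptor is known to induce, 9 were tested and none passed in limma, nor did any reach an unadjusted p under 0.05. The median log2 change of the 9 was -0.24, beside -0.18 over all genes. Dusp1, a phosphatase, read 25.1 ± 3.74 and 21.1 ± 3.4 TPM (SD, n = 4 each; limma adjusted p = 0.523) in experimental and control libraries. Klf9, a transcription factor gene, lay at 0 to 1.42 TPM in experimental and 0 to 2.92 TPM in control libraries (limma adjusted p = 0.351). All 9 regulators of steroid synthesis on the list, among them Nr5a1, which drives Cyp11a1 in adrenal and gonad, and the corticotropin receptor gene Mc2r, were listed at 0 in all 8 libraries.

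**Figure D3:**
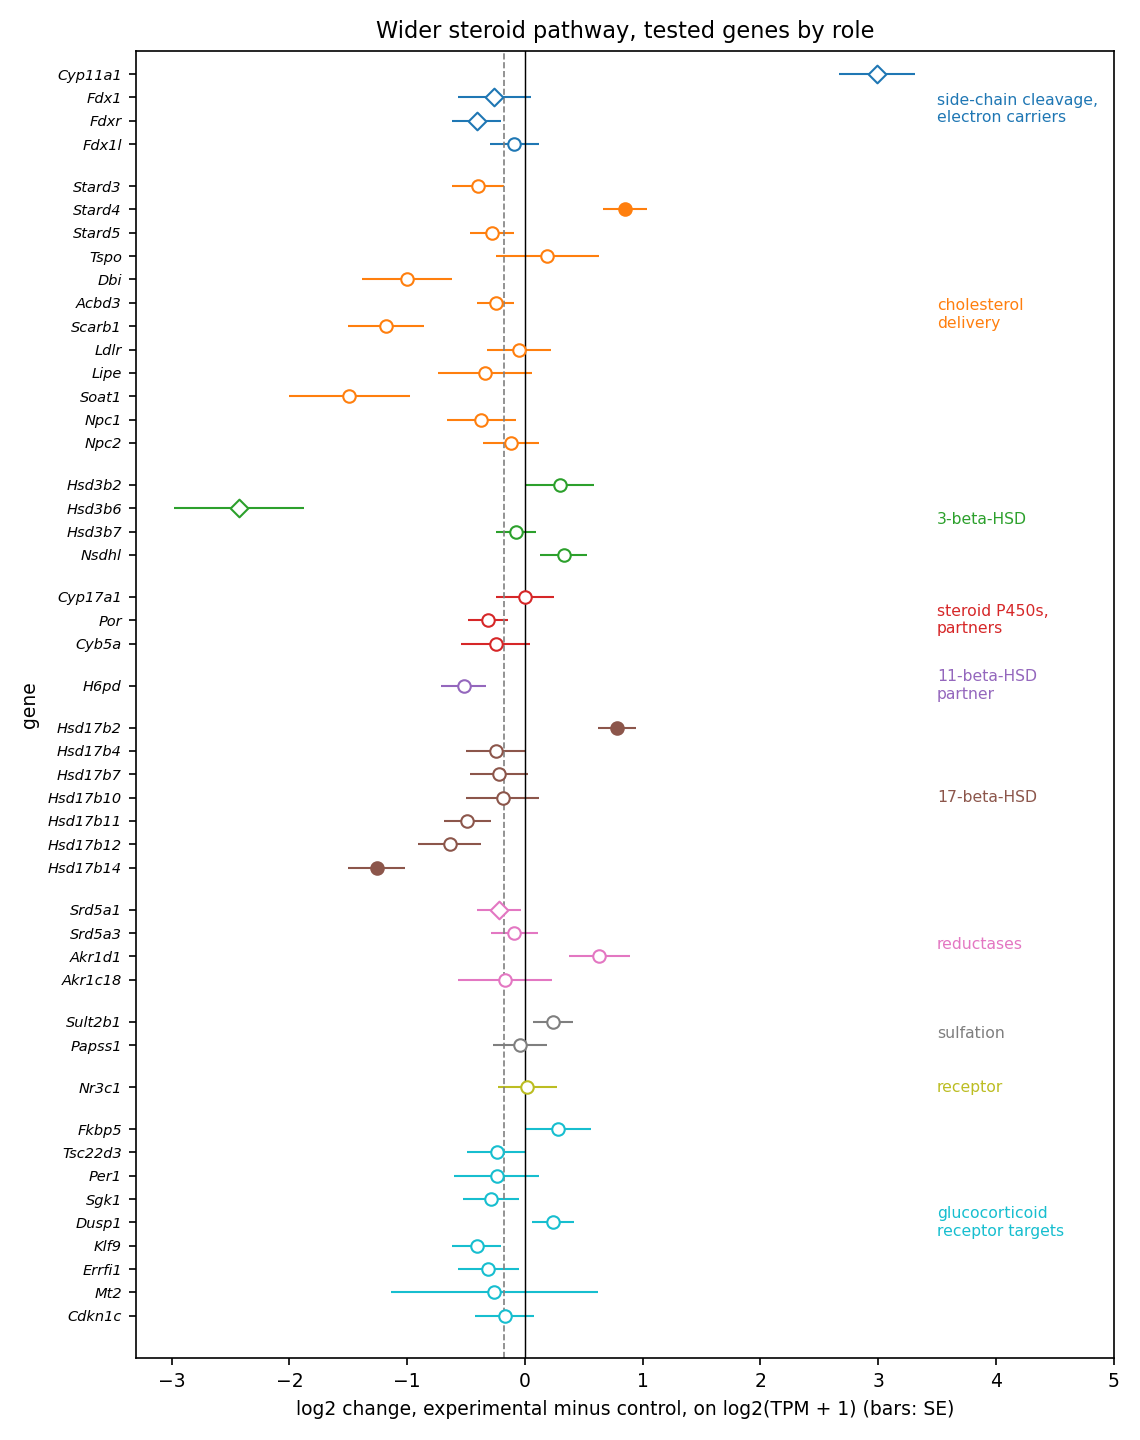
Log2 change, experimental minus control, on the log2(TPM + 1) scale for the 47 tested genes of the wider list, grouped by role; bars are the SE of the fit, and the dashed line marks the median of all genes at -0.18. Diamonds are the members, drawn open whatever their p, and filled circles are other genes past limma adjusted p under 0.05: Stard4, Hsd17b2 and Hsd17b14; open circles are genes that did not pass.

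Markers of the cell types that the tissue could hold were read beside the members. Control libraries 1 and 2 both stood above every experimental library for 50.7% of all tested genes, and control libraries 3 and 4 both did for 16.6%. This rank of control libraries 1 and 2 is thus shared by Hsd3b6 and many genes, whereas the size of the gap was not counted. Of 12 sebaceous markers, all detected, 10 stood so in control libraries 1 and 2 and 3 in control libraries 3 and 4. Of 9 hair follicle markers the counts were 5 and 6, and of 9 interfollicular keratinocyte markers 4 and 1. Hsd3b6 stood above every experimental library in all 4 controls, as did Far2, Elovl3 and Awat2 of the sebaceous list. Krt28, Msx2 and Hoxc13 of the hair follicle list and Krt15 of the keratinocyte list did as well. The sebaceous markers summed to 1187 to 1877 TPM in experimental and 1753 to 2882 TPM in control libraries, led by Krt79 and Acsbg1. Most of that sum was Krt79, at 927 to 1585 TPM in experimental and 1384 to 2199 TPM in control libraries. The median log2 change was -1.1 over the 12 sebaceous markers, -1.4 over the 8 tested hair follicle markers and -0.18 over all genes. Of the 12 tested, 1 passed in limma, downward, where 1.54% of all tested genes did. Far2, which makes fatty alcohols for wax esters, read 5.89, 5.54, 2.69 and 5.04 TPM in experimental libraries, against 44.8, 43.9, 13.8 and 8.85 TPM in control libraries. The part of sebaceous cells in the Hsd3b6 level was not tested.

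The genes most like Hsd3b6 over the 8 libraries, by Pearson's r of log2(TPM + 1) as a description, were Elovl5 (0.992), Polr2g (0.988), Far2 (0.988), Cyp2g1 (0.983) and Ciao2a (0.979). Cyp2g1 read 10.3, 14.7, 6.97 and 8.14 TPM in experimental libraries, against 124, 112, 26.4 and 13.8 TPM in control libraries. As for Hsd3b6, control libraries 1 and 2 were high and control libraries 3 and 4 were nearer to the experimental ones, which follows from the choice by likeness. Of all tested genes 59 had an r of at least 0.95 with Hsd3b6. Among the genes named, Far2 is on the sebaceous list used here and the others are not. Whether they share a cell type with Hsd3b6 was not tested.

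Cyp11a1 was most like Slurp2 (0.974), Asah2 (0.974), Il1f5 (0.974), Gsta3 (0.973) and Grb14 (0.972), and 26 tested genes had an r of at least 0.95 with it. Slurp2, a secreted Ly6-family protein of keratinocytes, read 334, 369.7, 374 and 395 TPM in experimental libraries, against 138, 158, 154 and 168 TPM in control libraries. Asah2, a neutral ceramidase, read 42.5, 33.9, 56.8 and 76.1 TPM in experimental libraries, against 20.4, 16.3, 18.2 and 20.3 TPM in control libraries. Grb14 read 2.71, 3.67, 2.58 and 4.9 TPM in experimental libraries and was listed at 0 in all 4 controls. For all 5 genes every experimental library lay above every control, as for Cyp11a1. They were chosen for likeness to Cyp11a1 over these same libraries, so this follows from the choice and supports nothing.

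**Figure D4:**
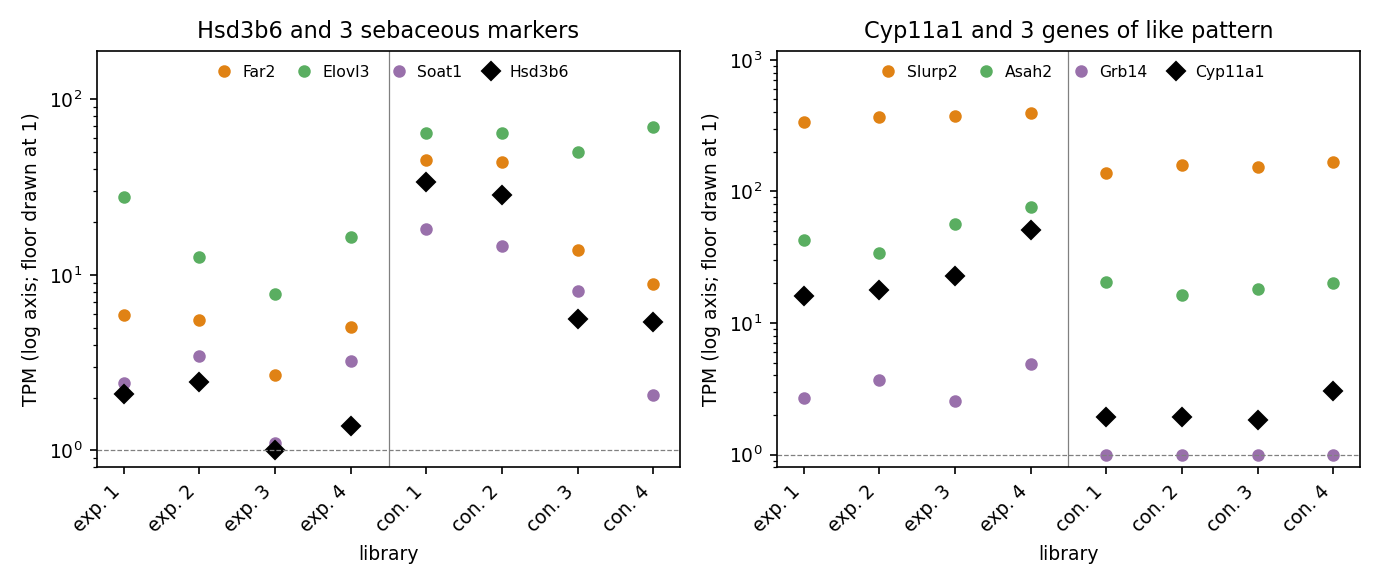
TPM per library on a log axis, with values at the floor drawn at 1 TPM, experimental libraries on the left of the grey line and control libraries on the right. The left panel sets Hsd3b6 beside Far2, Elovl3 and Soat1, picked from the 12 genes of the sebaceous list. Of these, Far2 and Soat1 are highest in control libraries 1 and 2 as Hsd3b6 is, and Elovl3 is not. Acsbg1 of the same list, not drawn, overlapped between the groups. The right panel sets Cyp11a1 beside Slurp2, Asah2 and Grb14, chosen for likeness to it and all higher in the 4 experimental libraries than in the controls.

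Markers of cell types outside the epithelium were mostly low. Of 8 mast cell markers 7 were listed at 0 in all 8 libraries, and Kit read 1.15 TPM in control library 1. The 5 T cell markers in the table, led by Cd3g and Cd3e, summed to 4.83, 19.7, 7.2 and 14.6 TPM in experimental libraries, against 19.5, 20.5, 10.1 and 1.84 TPM in control libraries. Of 7 markers of adrenal and gonadal steroid cells, Cyp17a1 alone was detected. Fibroblast markers, led by Dcn and Col3a1, summed to 0 to 3.29 TPM in experimental and 0 to 29.6 TPM in control libraries, with Lum and Pdgfra at the floor throughout. Of 5 adipocyte markers Fabp4 alone was detected, at 71.1 to 276 TPM in experimental and 100.2 to 1129 TPM in control libraries; Adipoq, Plin1, Lep and Cidec were at 0. Hair follicle markers, led by Krt71 and Krt25, summed to 1211 to 8826 TPM in experimental and 4856 to 33545 TPM in control libraries. Interfollicular keratinocyte markers were all present, led by Lor and Krt10, and summed to 76821 to 112595 TPM in experimental and 65408 to 79862 TPM in control libraries. That sum is set by its most abundant genes and does not stand for each marker. Of the 9 tested, Krt15 alone passed in limma, and it fell (log2 change -2.82, limma adjusted p = 0.0361). It lay at 48.9 to 169.9 TPM in experimental and 184 to 1323 TPM in control libraries. The part of these cell types in the members' levels was not tested.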

How the data were processed

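RNA from 4 experimental and 4 control libraries was used. Per the submitters' processing notes, STAR, SAMtools 1.9, Salmon 0.14.0, DESeq and the builds GRCm38 and mm10 were used, without saying for which file. The expression values as deposited by the authors are log2 TPM. Their scale was tested on 400 genes against the mean normalized count signal of the authors' deposited DESeq2 table: per kilobase, the ratio to 2 to the power of the value was 0.98 to 1.02 times that of the 100 genes with the highest values, and 1.04 to 1.41 times when 1 was subtracted. The table was thus taken to hold log2 TPM floored at 1 TPM, and converted values summed to 83.2% to 86.0% of the full total. The design had left the log form open. The deposited DESeq2 table also gives a log2 fold change, a Wald score and p-values, per the file headers. The deposited MAJIQ table gives PSI fractions and a difference score, per the file headers. Column names carry a group but no replicate number of the labels, so numbers 1 to 4 are table order and pair nothing.

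Values were set to at least 1 TPM and taken as log2(TPM + 1); 10682 genes with mean TPM of at least 1, entries at 0 counted as 0, were fitted with limma 3.58.1 in R 4.3.3, using a group term alone (trended eBayes; two-sided p, adjusted by Benjamini-Hochberg). The fit was first tested on simulated data, for genes well above the floor. It recovered 53% of log2 changes of 1 and 93% of log2 changes of 2, and 3.95% of its calls were false. The simulated libraries varied independently, without the split between control libraries seen here. Word sharing used GENCODE M21 transcripts, and coding sequences were aligned with Biopython 1.88 (Python 3.11.15, pandas 2.3.3, numpy 2.4.6, matplotlib 3.10.9). The members and lists were chosen with earlier results of these data known. The text names all members, each list gene past the threshold, the 2 of lowest p in roles with none, the 2 most abundant genes of each marker list and the 5 genes most like Cyp11a1 and Hsd3b6. Names given beyond that rule are Soat1, Cyp17a1, Hsd3b2, Elovl3, Stard3, Npc1, Mt2, Tspo, Far2, Cyp27a1, Krt15, Awat2, Krt28, Msx2, Hoxc13 and those listed at 0. Alternatives were other pseudocounts, filters, scalings, variance models and library sets.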

Additional observations from a re-analysis of the deposited data

Results flagged for a closer look

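In groups of 4 libraries, a value was singled out when its gap to the nearest other value exceeded 0.829 of the group's range, among genes of the steroid list with no entry at the floor. Of 87 groups 4 met this, and chance alone gives about 1 in 20.

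Cyp11a1 in control library 4, at 3.03 TPM, stood above the other controls at 1.83 to 1.94 TPM and remained far below the lowest experimental library at 16.1 TPM. Hsd3b2 in experimental library 4, at 9.44 TPM, stood above the other experimental libraries at 2.88 to 3.7 TPM. Stard3, a cholesterol carrier of late endosomes, stood at 12.1 TPM in control library 4, above 7.06 to 7.74 TPM in the other controls. Npc1, the lysosomal cholesterol exporter, stood at 3.65 TPM in experimental library 2, below 9.24 to 10.1 TPM in the other experimental libraries.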

How the results depend on the processing

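The count of 263 genes past the threshold became 4423 with library weights from limma's arrayWeights, 544 without control libraries 1 and 2, 2595 without control libraries 3 and 4, and 15 without experimental libraries 2 and 4; leaving out 1 library gave 85 to 578. The wider steroid list, with 5 genes past the threshold, had 3 without the filter on low values, 3 with median centring, 3 with quantile normalization, 3 with entries at 0 left at 0, 24 with library weights, 17 without control libraries 3 and 4 and 1 without experimental libraries 2 and 4; leaving out 1 library gave 1 to 6. The cause was not tested. Log2 changes over the alternatives ran from 2.65 to 3.43 for Cyp11a1, from -3.58 to -1.28 for Hsd3b6, from -0.83 to 0.31 for Fdx1, from -0.67 to -0.14 for Fdxr and from -0.43 to -0.01 for Srd5a1. Median centring moved the median gene from -0.18 to 0.03. No paired analysis was possible because the columns carry no replicate number of the labels. Depth per library is not given, which limits all values near 1 TPM. Mean normalized counts are deposited for 748 genes only, among them Hsd3b6 at 1249.5 and H6pd at 677.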

Other observations

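For 2 genes of the steroid list, chosen after their values were seen, the controls spread on both sides of the experimental libraries. Mt2, a metallothionein gene that glucocorticoid induces, lay between 61.8 and 177 TPM in experimental libraries and between 14.9 and 482 TPM in control libraries. Tspo, an outer mitochondrial membrane protein long linked to cholesterol import, lay between 35.6 and 48.3 TPM in experimental and between 13.2 and 69.9 TPM in control libraries. Vitamin D enzymes that use the same ferredoxin were at or near the floor: Cyp27b1 and Cyp24a1 were listed at 0 in all 8 libraries, and Cyp27a1 read at most 1.65 TPM in experimental and 1.07 TPM in control libraries.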
